A study of Mus musculus with 14 samples.

Results

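The unfolded protein response and the integrated stress response were followed through 10 genes in mouse embryonic stem cells (ESCs) and the embryoid bodies (EBs) made from them. The genes were chosen by name from the deposited CPM table, with earlier results of these data known. Hspa5, Xbp1, Herpud1 and Dnajb9 stand for the endoplasmic reticulum (ER), and Atf4, Ddit3, Atf3, Trib3, Chac1 and Asns for Atf4 and the genes it acts on. All 10 were found, of 50686 genes in the count table and 16181 in the CPM table, and each passed the filter on low counts in every test. The lowest number of reads on any of them in a library was 41.

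RNA was sequenced from 2 stable lines of ESCs with an Osr1-GFP reporter. The shLacZ line carries an shRNA against LacZ, a gene that mouse cells lack, and is the control, while the shDIS3L2 line carries an shRNA against the exonuclease DIS3L2. Each line was taken undifferentiated in LIF/2i medium (d0) and as EBs every other day until d12, after LIF and 2i were withdrawn and hanging drops were formed in serum. With 1 library per line and day there were 14 libraries, both treatments are known from 1 line each, and whether the lines are clonal is not given in the sources used here.

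When unfolded proteins build up in the ER, the sensors Ern1 (IRE1), Eif2ak3 (PERK) and Atf6 raise the transcription of chaperones and of factors that remove misfolded proteins. PERK also phosphorylates the translation factor eIF2α, as do other kinases that sense amino acid shortage, heme shortage or double-stranded RNA, and this favors translation of Atf4, which switches on genes of amino acid supply and stress. ESCs in culture and secretory tissues such as the yolk sac endoderm make different demands on these pathways. Xbp1 is activated by splicing of its mRNA and Atf4 mainly by translation, and neither step can be read from counts per gene.

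The 300-base promoter windows of the 10 genes were searched for the elements by which the responses act, and the matches are shown because they say which of these windows hold which element. The ER stress element (ERSE) was searched as CCAAT and CCACG separated by 9 bases, the shorter ERSE-II as ATTGG and CCACG separated by 1 base, and the element bound by C/EBP-ATF dimers as TGATGNAA, all on both strands. The sequences are from RefSeq, build GRCm38.p6, written 5′ to 3′ on the strand of the gene, with the element in capitals.
Hspa5 ERSE, plus strand, chr2:34772020-34772048: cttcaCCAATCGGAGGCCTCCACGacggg
Herpud1 ERSE-II, plus strand, chr8:94386368-94386396: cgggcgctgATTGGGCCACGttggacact
Herpud1 C/EBP-ATF element, plus strand, chr8:94386306-94386335: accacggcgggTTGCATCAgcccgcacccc
Atf3 C/EBP-ATF element, minus strand, chr1:191183425-191183454: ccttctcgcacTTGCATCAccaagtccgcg
Trib3 C/EBP-ATF element, minus strand, chr2:152344028-152344057: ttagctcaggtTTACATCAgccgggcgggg
Chac1 C/EBP-ATF element, plus strand, chr2:119351038-119351067: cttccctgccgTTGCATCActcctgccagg
Asns C/EBP-ATF element, minus strand, chr6:7693214-7693243: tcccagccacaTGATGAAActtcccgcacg

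The ERSE of Hspa5 lay at -65 to -47 from the gene's start, which is position 0, and the ERSE-II of Herpud1 at -52 to -42. Of 32851 promoter windows of this length, 0.119% held an ERSE and 0.0365% an ERSE-II. The C/EBP-ATF element was found in 5 of the 10 windows and in 3.97% of all windows, and those of Herpud1, Atf3 and Chac1 had the same 8 letters, on the strand opposite to the gene. Hspa5 and Herpud1 thus differed from the 4 Atf4 targets with a match by an ERSE or ERSE-II, and Herpud1 held both kinds of element. In the windows of Xbp1, Dnajb9, Atf4 and Ddit3 none of these 3 elements was found. Sequence outside the windows was not searched, so an element there would be missed. The window of Atf3 (chr1:191183284-191183583) lies inside the counted gene, which on the minus strand reaches upstream to 191218039, so that start was not searched. CCAAT alone was in 37.4% of all windows and in those of Dnajb9, Atf4 and Ddit3 as well.

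The libraries held 7178712 to 39888099 reads on genes. Dis3l2 in the libraries labelled shDIS3L2 was at 14.3%, 28.6%, 32.2% and 55.1% of its shLacZ CPM at d0, d2, d4 and d6, at 96.9% (95% interval 83.5 to 112) and 95% (78.8 to 115) at d8 and d10, and at 75.4% at d12, so results for the lines are given with and without d8 and d10. The genes of the CPM table held 78.3% and 75.2% of the reads at d0 against 85.6% to 90.5% later, and at d0 the median gene of the table was lower in shDIS3L2 by a log2 ratio of -0.26, against -0.05 to 0.05 on the other days. Pluripotency markers, summed as reads on the listed genes in CPM units without the added count, came to 4323 and 3349 at d0 and to between 193 and 1313 in EBs, and all 10 fell in EBs. In bulk RNA, fewer cells of a type and less RNA per cell cannot be told apart.

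Per kilobase of gene length, the members kept a broad order of levels. Hspa5, Atf4 and Asns took the first 3 places in all libraries but those of d10, where Xbp1 came ahead of Asns. Hspa5 ranged from 102 to 279 CPM per kilobase, Atf4 from 89.7 to 286 and Asns from 36.9 to 387. Asns was above Atf4 and Hspa5 at d0 in both lines and below both in all EBs, while Hspa5 was the highest member in EBs except at d4, when Atf4 was. The remaining members lay between 1.20 and 59.6 CPM per kilobase, and their ranges overlapped.

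**Figure D1:**
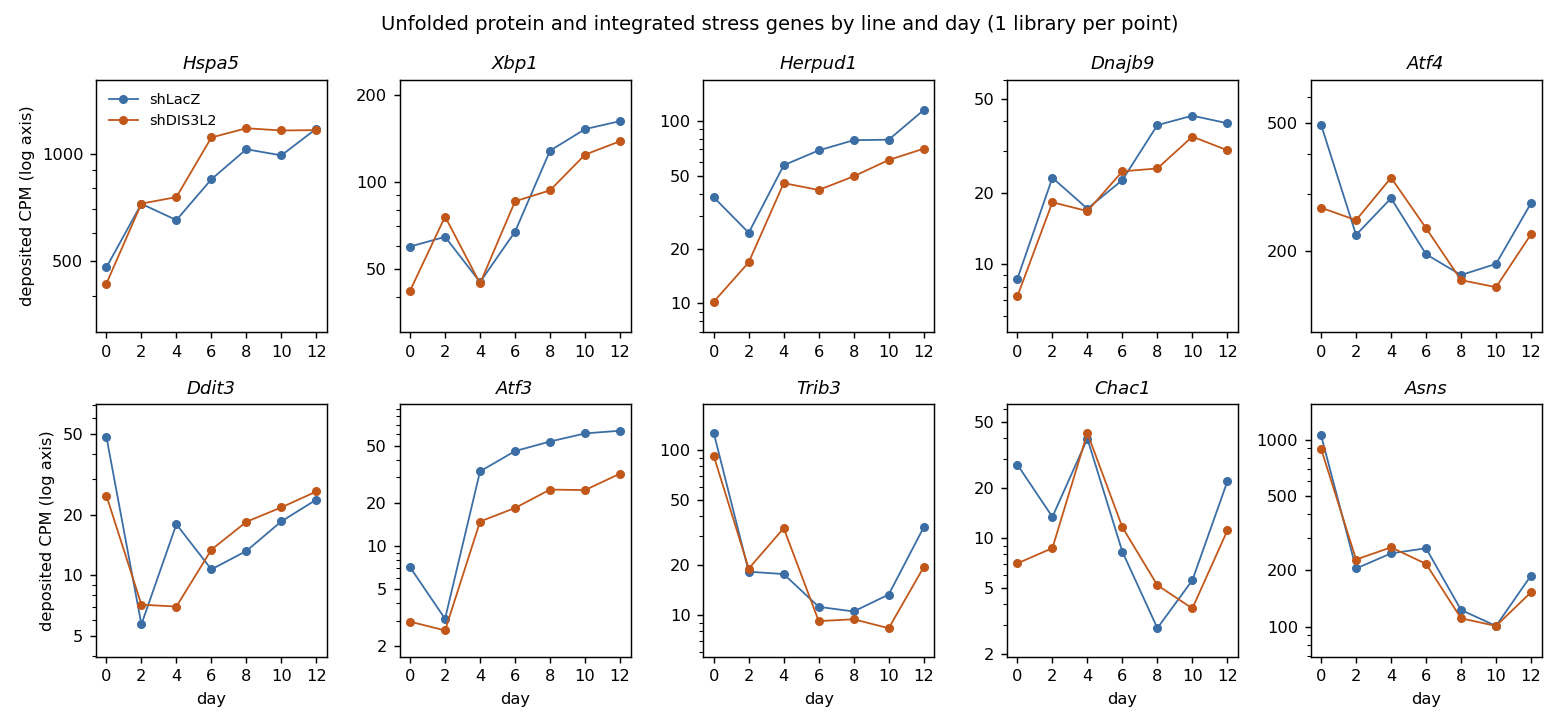
Deposited CPM of the 10 genes (log axis, 1 panel per gene) against the day of differentiation, with 1 point per library, shLacZ in blue and shDIS3L2 in orange. Trib3 and Asns were highest at d0 and Hspa5 and Herpud1 were lowest in the first days in both lines, and the shLacZ line of Atf3 lay above that of shDIS3L2 on all 7 days.

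The ER genes were higher in EBs than in undifferentiated cells and higher in later than in earlier EBs by tests that took both lines together. In the same tests 10 of 10 visceral endoderm-like markers rose both times (median log2 fold changes 7.15 and 4.40) and 9 and 10 of 10 mesenchyme-like markers did (7.42 and 5.16), and their part in the rise of the ER genes was not tested. Hspa5 encodes BiP, the main Hsp70 chaperone of the ER lumen and the repressor of the stress sensors. In shLacZ its level was 481 CPM at d0 and 724, 652, 848, 1029, 989 and 1175 CPM on the following EB days up to d12. In shDIS3L2 it was 433, 725, 756, 1110.0, 1178, 1161 and 1164 CPM on the same days. Both d0 libraries lay below all EB libraries, and d8, d10 and d12 lay above d2 and d4 in both lines. EBs exceeded d0 by a log2 fold change of 0.65 ± 0.11 (SE, edgeR adjusted p = 0.000433), and d6 to d12 exceeded d2 and d4 by 0.66 ± 0.09 (adjusted p = 0.000182).

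Xbp1 encodes the transcription factor that IRE1 activates and is itself transcribed under ER stress. Its level in shLacZ was 59.6, 64.4, 44.9, 67.1, 128, 152 and 162 CPM over the 7 days from d0 to d12. The shDIS3L2 libraries held 41.9, 75.7, 44.4, 85.5, 93.3, 124 and 138 CPM. In both lines d4 was below d2 and the 3 last days were the 3 highest. The log2 fold change of d6 to d12 over d2 and d4 was 1.10 ± 0.14 (adjusted p = 0.000110). That of EBs over d0 was 0.46 ± 0.17 (adjusted p = 0.0291), and it did not pass with DESeq2's size factors (0.36, adjusted p = 0.0628), with DESeq2, without the filter on low counts, or without d10 or d12, with adjusted p from 0.000383 to 0.130 over 12 alternatives.

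Herpud1 encodes an ER membrane protein of ER-associated degradation. The shLacZ line held 38.2, 24.4, 57.3, 69.1, 78.6, 79.1 and 115 CPM from d0 to d12. Values in shDIS3L2 were 10.2, 16.8, 45.7, 41.9, 49.8, 61.2 and 70.6 CPM. The libraries of d0 and d2 were the lowest of each line and d12 the highest. EBs exceeded d0 by 0.94 ± 0.23 (log2, adjusted p = 0.00343) and later EBs exceeded earlier ones by 1.13 ± 0.18 (adjusted p = 0.000438). The latter was 0.45 (adjusted p = 0.165) without d2 and 1.81 without d4.

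Dnajb9 encodes ERdj4, a co-chaperone of BiP. The shLacZ line held 8.65, 23.1, 17.1, 22.6, 38.6, 42.3 and 39.3 CPM from d0 to d12. For shDIS3L2 the values were 7.29, 18.2, 16.7, 24.6, 25.3, 34.5 and 30.2 CPM. From d0 to d2 it was 2.67-fold higher (95% counting interval 2.31 to 3.11) in shLacZ and 2.49-fold (2.05 to 3.06) in shDIS3L2, and both d0 libraries lay below all others. Its log2 fold changes were 1.35 ± 0.19 for EBs over d0 (adjusted p = 7.33e-05) and 0.82 ± 0.14 for later over earlier EBs (adjusted p = 0.000641).

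Among Atf4 and its targets, 5 of 6 were lower in EBs than at d0 by the test, in which 35.2% of all genes were, and Asns, Trib3 and Ddit3 were at least 2-fold lower by d2 in both lines. Atf4 is the transcription factor of the integrated stress response. Its level in shLacZ was 493, 225, 292, 196, 169, 183 and 282 CPM from d0 to d12. The shDIS3L2 libraries held 273, 249.8, 338, 236, 163, 155 and 226 CPM. The highest shLacZ library was that of d0 and the highest shDIS3L2 library that of d4, and d8 and d10 were the 2 lowest of each line, so not every EB library of shDIS3L2 lay below its d0. EBs were lower by a log2 fold change of -1.15 ± 0.15 (adjusted p = 5.72e-05), and later EBs were lower than earlier ones by -0.41 ± 0.13 (adjusted p = 0.0240). The difference of later EBs was -0.62 without d2, and its call was lost without d4 (-0.20, adjusted p = 0.327), d8 (-0.33, 0.0923) or d10 (-0.33, 0.0870).

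Asns encodes asparagine synthetase, a classic target of Atf4 under amino acid shortage. The shLacZ line held 1059, 205, 247, 263, 123, 101 and 188 CPM from d0 to d12. Values in shDIS3L2 were 897, 229, 266, 217, 111, 101 and 153 CPM. Both d0 libraries lay more than 3-fold above every EB library. The log2 fold changes were -2.88 ± 0.10 for EBs over d0 (adjusted p = 1.10e-08) and -0.61 ± 0.10 for later over earlier EBs (adjusted p = 0.000470).

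Trib3 encodes a pseudokinase that acts back on Atf4. From d0 on, shLacZ held 127, 18.3, 17.7, 11.2, 10.5, 13.3 and 34.0 CPM on the 7 days. For shDIS3L2 the values were 92.2, 19.1, 33.6, 9.18, 9.42, 8.31 and 19.5 CPM. As for Asns, the d0 libraries stood apart, and in both lines d12 was more than 2-fold above d10. The log2 fold changes were -3.19 ± 0.21 for EBs over d0 (adjusted p = 3.49e-07) and -0.72 ± 0.21 for later over earlier EBs (adjusted p = 0.0147), the second of which did not pass without d6 (-0.60, adjusted p = 0.0567) or d8 (-0.60, 0.0598).

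Chac1 encodes an enzyme that breaks down glutathione. Its level in shLacZ was 27.6, 13.4, 39.6, 8.27, 2.87, 5.57 and 21.9 CPM from d0 to d12. The shDIS3L2 libraries held 7.04, 8.69, 42.8, 11.6, 5.2, 3.77 and 11.1 CPM. It was highest at d4 in both lines, lowest at d8 or d10, and unlike Asns and Trib3 it was not highest at d0. In shDIS3L2, 4 of 6 EB libraries lay above d0. Later EBs were lower than earlier ones by -1.45 ± 0.30 (log2, adjusted p = 0.00240), a difference that was -2.42 without d2 and did not pass without d4 (-0.46, adjusted p = 0.359). EBs were lower than d0 by -0.96 ± 0.36 (adjusted p = 0.0340), and this call was lost with library totals alone (-0.41, adjusted p = 0.385), with limma on the deposited CPM, and without d8 or d10, with adjusted p from 0.00708 to 0.392 over 12 alternatives.

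Ddit3 encodes CHOP, a transcription factor of the PERK branch linked to cell death. From d0 on, shLacZ held 48.5, 5.72, 17.9, 10.7, 13.2, 18.5 and 23.7 CPM on the 7 days. Values in shDIS3L2 were 24.8, 7.16, 7.01, 13.4, 18.4, 21.7 and 26.0 CPM. It was lower at d2 than at d0 in both lines, and from d6 to d12 each day was higher than the one before, so that d12 of shDIS3L2 was no lower than d0. EBs were lower than d0 by -1.74 ± 0.26 (log2, adjusted p = 0.000141), and later EBs were higher than earlier ones by 1.07 ± 0.26 (adjusted p = 0.00540), which did not pass without d2 (0.64, adjusted p = 0.192). Ddit3 shares 68 exonic bases with Mars on the opposite strand, and whether counting used strand is not given in the sources used here.

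Atf3, a stress-induced transcription factor and target of both Atf4 and other signals, was the only one of these 6 that was higher in EBs. Its level in shLacZ was 7.11, 3.11, 33.1, 45.8, 53.4, 60.8 and 63.5 CPM from d0 to d12. For shDIS3L2 the values were 2.97, 2.58, 14.8, 18.4, 24.7, 24.5 and 31.9 CPM. The d0 and d2 libraries lay below all later ones, and from d2 to d4 the level was 10.6-fold higher (8.12 to 14.2) in shLacZ and 5.74-fold (4.21 to 8.03) in shDIS3L2. The log2 fold changes were 1.87 ± 0.22 for EBs over d0 (adjusted p = 2.09e-05) and 2.29 ± 0.17 for later over earlier EBs (adjusted p = 5.44e-06). The latter passed in all 13 alternatives but ranged with the earlier day used, from 0.80 without d2 to 3.77 without d4.

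**Figure D2:**
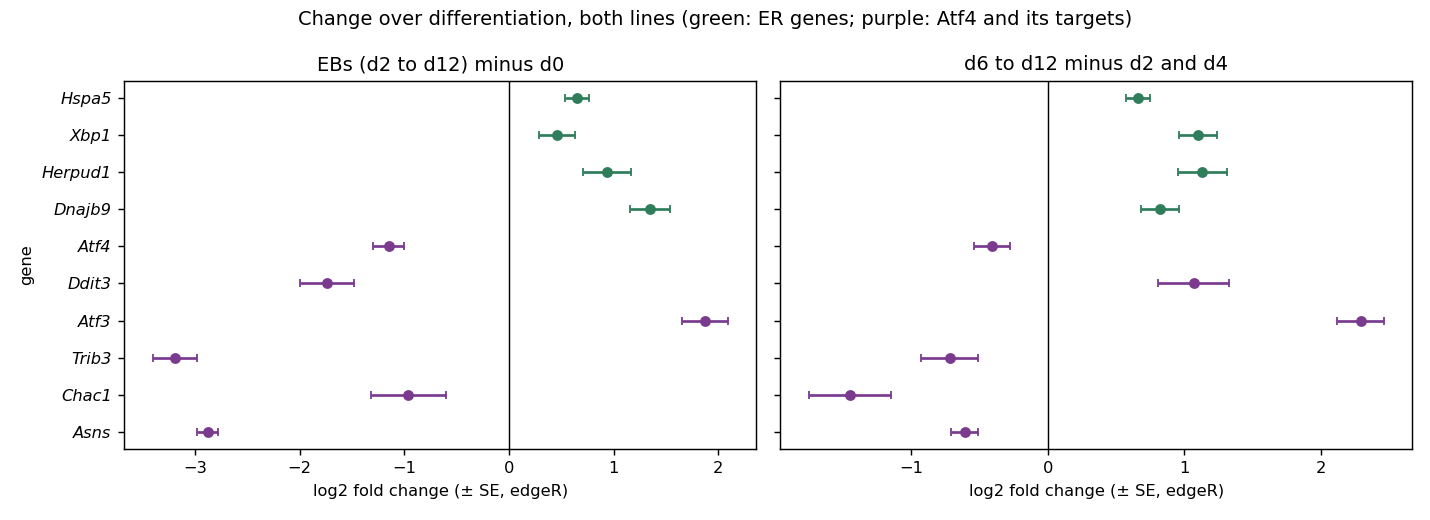
Log2 fold changes of the 10 genes from edgeR (points), with bars ± SE derived from its F statistic. EBs of d2 to d12 are set against d0 (left) and d6 to d12 against d2 and d4 (right). The ER genes are in green and Atf4 and its targets in purple. The 4 ER genes lie above 0 in both panels, from 0.46 to 1.35 and from 0.66 to 1.13, while of the other 6 Atf3 alone lies above 0 on the left and Atf3 and Ddit3 on the right.

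Against d0, 5 of 10 members rose and 5 fell, with 39.2% of 20050 genes higher and 35.2% lower. Between earlier and later EBs, 6 rose and 4 fell, with 28% of genes higher and 27.5% lower, so that to change at all was common among genes and the members' count alone does not set them apart. The tests took the 2 lines as replicates of a day, so that p-values measure the spread between these samples. The median of all genes for EBs against d0 was 0.24 with TMM, 0.15 with DESeq2's size factors and 0.83 with library totals, and members are to be read against it. Without scaling Xbp1 was at 1.04 and Hspa5 at 1.24.

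Between neighboring days each comparison rests on 2 libraries, has no replicate check and was read on the scale of the deposited CPM. From d0 to d2, 6 of 10 members were at least 2-fold lower in shLacZ (Atf4, Ddit3, Atf3, Trib3, Chac1 and Asns), where 20.7% of genes were, and 3 in shDIS3L2 (Ddit3, Trib3 and Asns), where 19.4% were. From d2 to d4, 4 members were at least 2-fold higher in shLacZ (Herpud1, Ddit3, Atf3 and Chac1) beside 11.7% of genes, and 3 in shDIS3L2 (Herpud1, Atf3 and Chac1) beside 13.3%. From d10 to d12, Trib3 and Chac1 were at least 2-fold higher in both lines, where 3.32% of genes in shLacZ and 5% in shDIS3L2 were. Chac1 was then 3.93-fold higher (2.81 to 5.66) in shLacZ and 2.95-fold (2.17 to 4.04) in shDIS3L2, and Asns 1.86-fold (1.71 to 2.03) and 1.51-fold (1.41 to 1.62). Atf4 itself was 1.54-fold and 1.46-fold higher over the same step, and Ddit3 1.28-fold and 1.20-fold. Atf3 was at 1.05-fold in shLacZ, with an interval that spanned 1 (0.923 to 1.19), while its interval in shDIS3L2 lay above 1 (1.12 to 1.51). By CPM all 6 genes of this branch were higher at d12 than at d10 in both lines, that of Atf3 in shLacZ within counting error. The share of all genes with any rise over this step was not counted. The median log2 change of the genes compared was 0.01 in shLacZ and 0.07 in shDIS3L2.

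Between the lines, the members with the largest differences in the tests over several days were Atf3 and Herpud1, although on a single day Chac1 at d0 was the furthest from 1 (0.255). Both were lower in the libraries labelled shDIS3L2 on 7 of 7 days. Atf3 was at 0.418 of its shLacZ CPM at d0 (95% counting interval 0.307 to 0.558), at 0.830 (0.561 to 1.21) at d2 and between 0.403 and 0.502 on the 5 later days. Its log2 fold change over the 7 days was -1.10 ± 0.13 (adjusted p = 0.00991), and over d6 to d12 it was -1.19 ± 0.09 (adjusted p = 0.000414). Herpud1 was at 0.267 (0.229 to 0.310) at d0 and between 0.607 and 0.798 on the other days, and every interval lay below 1. Its log2 fold changes were -0.75 ± 0.15 over the 7 days (adjusted p = 0.0256) and -0.62 ± 0.09 over d6 to d12 (adjusted p = 0.00239). These tests take the days of 1 series as replicates, so their p-values say nothing of other cultures of the lines.

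Over the 7 days 2 of 10 members were lower and none was higher, with 3.82% of 20050 genes lower and 1.91% higher. Over d6 to d12, 3 members were lower and none higher, with 18.7% of 17164 genes lower and 19.6% higher. The one added over d6 to d12 was Trib3 (-0.49 ± 0.15, adjusted p = 0.0428), which did not pass with DESeq2 (-0.50, adjusted p = 0.0506), with limma or without d8, d10 or d12, with adjusted p from 0.0395 to 0.287 over 11 alternatives. Over the 7 days both calls were lost without d8, d10 or d12, where 13, 8 and 12 genes of the whole table passed, and that of Herpud1 also without d6, while the log2 fold changes stayed between -1.16 and -0.99 for Atf3 and between -0.82 and -0.57 for Herpud1. Without d8 and d10 together, which leaves 10 and 4 libraries, 0 genes passed in either test with edgeR, where 1972 and 3149 genes had an unadjusted p under 0.05, and Atf3 was at -1.0 and -1.16 and Herpud1 at -0.80 and -0.73.

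**Figure D3:**
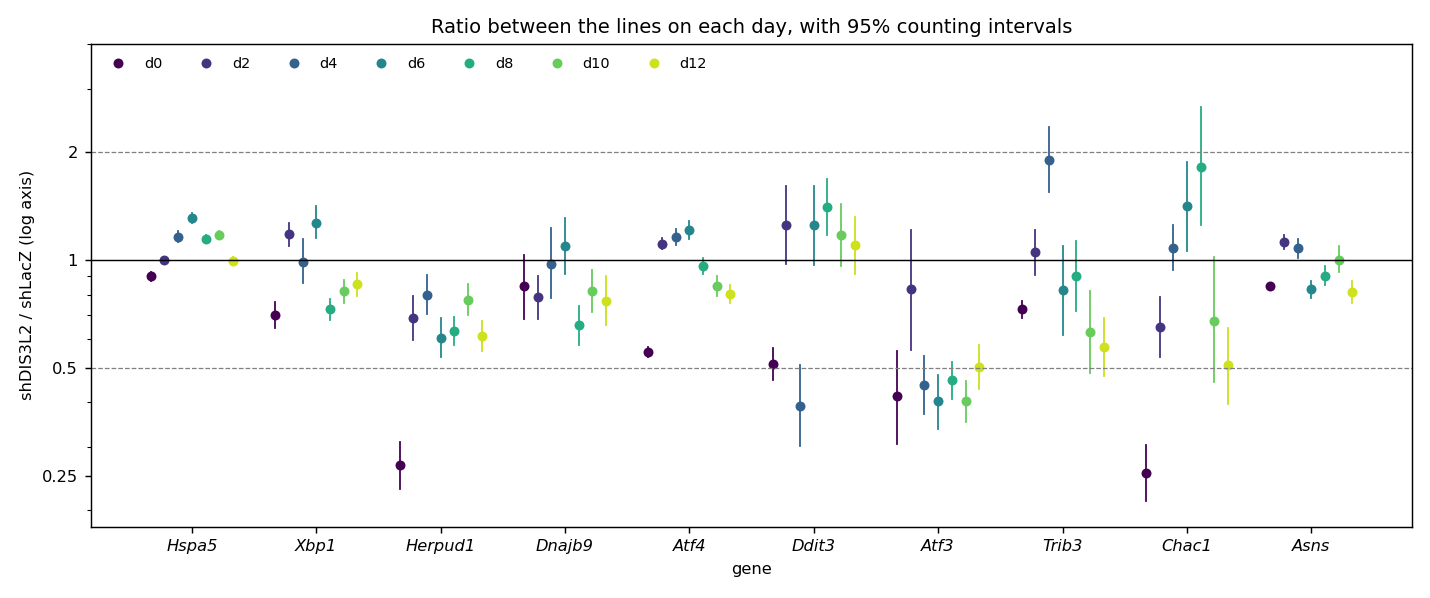
Ratio of CPM in shDIS3L2 to shLacZ (log axis) for each gene and day, colored by day, with 95% counting intervals, a solid line at 1 and dashed lines at 2-fold. All 7 points of Atf3 and Herpud1 lie below 1, while Hspa5 lies between 0.899 and 1.31 and no point reaches 2, the highest being Trib3 at d4 with 1.90.

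The gene of Herpud1 is part of chromosome 8, and that chromosome as a whole was lower in shDIS3L2. The median log2 ratio of the chromosome's genes was -0.41, -0.26, -0.28, -0.37, -0.30, -0.37 and -0.33 from d0 to d12, against -0.25 to 0.06 for the pooled genes of all other chromosomes. Chromosome 16 had like medians on the first 3 days sampled (-0.41, -0.27 and -0.21) and was at -0.15 to 0.00 from d6 on, so the shift was not particular to chromosome 8 in the first days. Relative to that median Herpud1 was at -1.49 at d0, at -0.04 and 0.00 at d4 and d10, and between -0.38 and -0.28 on the other 4 days. At d0, 7 of the chromosome's 685 genes (1.02%) were at or below it, Herpud1 included, against 13.2% to 50.5% on the other days. What the chromosome contributes to the result was not tested. Atf3, on chromosome 1, was at -0.24 relative to its chromosome's median at d2 and between -1.39 and -0.97 on the other days.

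**Figure D4:**
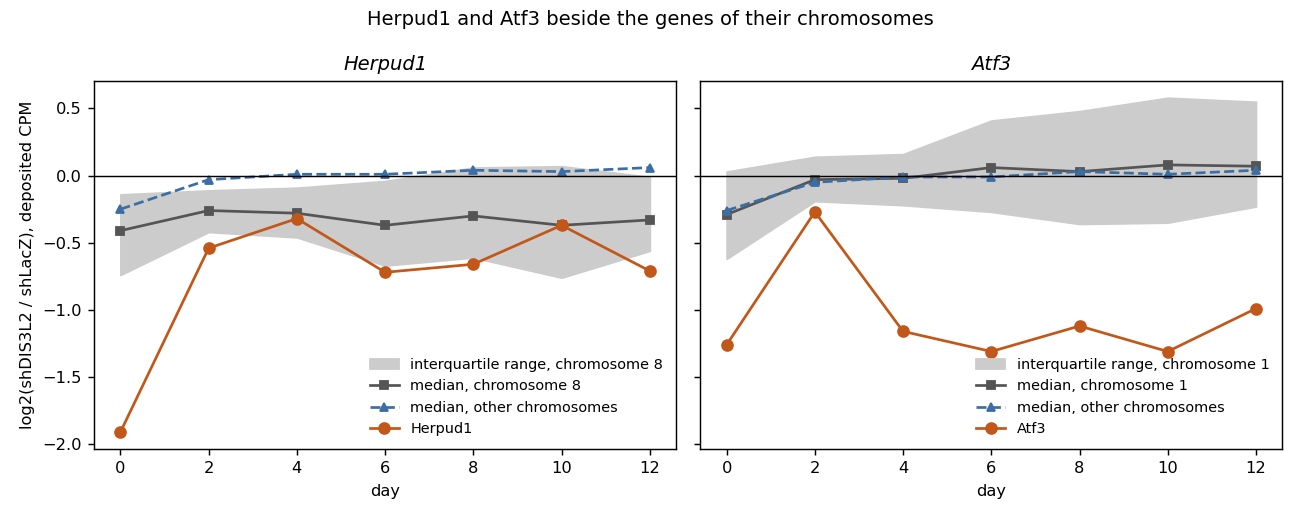
Log2 ratio of shDIS3L2 to shLacZ on each day for Herpud1 (left) and Atf3 (right, orange), with the median (gray squares) and interquartile range (gray band) of the genes of the same chromosome and the median of all other chromosomes (blue triangles). The chromosome 8 median lies between -0.41 and -0.26, Herpud1 meets it at d4 and d10, and Atf3 lies below the band of chromosome 1 on all days but not far below it at d2.

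The other ER genes did not pass a test between the lines. Hspa5 was at 0.899 (0.875 to 0.923) at d0, between 1.14 and 1.31 from d4 to d10 and at 0.991 (0.965 to 1.02) at d12, with 0.12 ± 0.08 over the 7 days (log2, adjusted p = 0.355) and 0.19 ± 0.08 over d6 to d12 (adjusted p = 0.108). Xbp1 was above 1 at d2 (1.18, 1.09 to 1.27) and d6 (1.27, 1.15 to 1.41) and below it at d0, d8, d10 and d12, the last 3 at 0.728, 0.816 and 0.855. Dnajb9 was below 1 with its interval on 4 days, lowest at d8 (0.656, 0.578 to 0.743). Hspa5 was therefore higher by CPM in shDIS3L2 on days when Herpud1 was lower, and the 4 ER genes did not share a direction between the lines. Without d6, Xbp1 and Dnajb9 passed over d8 to d12, at -0.34 and -0.44 (adjusted p = 0.0138 and 0.0163).

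At d0, 3 of 10 members were at least 2-fold lower in shDIS3L2 (Herpud1, Atf3 and Chac1), where 8.89% of genes were. Chac1 was at 0.255 (0.212 to 0.305), Ddit3 at 0.511 (0.461 to 0.566), Atf4 at 0.554 (0.537 to 0.572) and Trib3 at 0.728 (0.688 to 0.769), all of them further below 1 than the median gene at that day, while Asns was at 0.847 (0.832 to 0.863). The interval lay below 1 for 9 of 10 members, beside 55.2% of all genes. With DESeq2's size factors Atf3 was at 0.525, and Asns, Hspa5 and Dnajb9 were above 1, at 1.07, 1.13 and 1.06. At d2, 0 members were past 2-fold, with 1.33% of genes lower. At d4, Ddit3 (0.392, 0.302 to 0.509) and Atf3 (0.447) were, with 5.46% of genes lower, and Trib3 was at 1.90 (1.55 to 2.34), or at 2.02 with TMM factors. The 11 immediate early genes summed to 616 CPM in shLacZ and 217 in shDIS3L2 on that day, and the shLacZ library of d4 was the shallowest. Their part in the result was not tested.

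From d6 on, Atf3 alone was past 2-fold, at d6 (0.403), d8 (0.461) and d10 (0.403), beside 8.71%, 8.79% and 8.81% of genes lower. At d12 it was just outside at 0.502 and Chac1 at 0.508 (0.397 to 0.645), with 4.45% of genes lower, and both were past it with TMM factors, at 0.470 and 0.475. No member was at least 2-fold higher in shDIS3L2 on any day by deposited CPM. At d12, 8 of 10 members had an interval below 1 and none above it, beside 24.2% of all genes below 1 and 31.3% above. Over d6 to d12 visceral endoderm-like markers (10 of 10 genes measured) summed to between 3241 and 7813 CPM in shLacZ and between 638 and 2215 in shDIS3L2, and mesenchyme-like markers to between 548 and 2301 and between 1824 and 19337. None of either list was at 0 in all libraries. All 10 of the former were lower and 9 of the latter higher by the test over d6 to d12, and their part in the differences of Atf3 and Herpud1 was not tested.

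Whether the difference between the lines was another at d6 to d12 than at d0 to d4 was tested directly. With edgeR 0 of 10 members passed, with 4.85% of 20050 genes higher and 5.24% lower, and DESeq2 and limma gave 0 as well. At an unadjusted p under 0.05 were 3 members, namely Ddit3 (0.83 ± 0.34, adjusted p = 0.141), Trib3 (-0.77 ± 0.28, adjusted p = 0.109) and Asns (-0.33 ± 0.13, adjusted p = 0.128). Without the filter on low counts Ddit3 and Trib3 passed (0.86, adjusted p = 0.0238, and -0.73, adjusted p = 0.0266), and Ddit3 passed without d2 (1.29, adjusted p = 0.0377).

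Other genes of the same responses were taken from lists. In these lists, counts against d0 are to be read beside the 39.2% of all genes that were higher and the 35.2% that were lower. For later against earlier EBs these shares were 28% and 27.5%. Of 19 ER chaperones and folding enzymes, 8 were higher and 8 lower in EBs than at d0 (median 0.24, that of all genes being 0.24), and 12 were higher and 0 lower in later than in earlier EBs (median 0.46 against -0.02). Those of largest change against d0 were Fkbp2 (-2.46 ± 0.15), a prolyl isomerase, and Hspa13 (2.08 ± 0.16) and Dnajc3 (1.83 ± 0.17), a chaperone and a co-chaperone. Against earlier EBs they were Ero1l (1.21 ± 0.18), an oxidase of disulfide bond formation, Dnajc3 (1.13 ± 0.12) and Hspa13 (1.05 ± 0.11). Of 14 genes of ER-associated degradation, 9 rose and 3 fell against d0 (median 0.72), among them Edem3 (3.43 ± 0.22) and Edem2 (-1.44 ± 0.12). Of 9 ER stress sensors and transducers 7 rose and 0 fell (median 1.58), led by Creb3l1 (3.10 ± 0.38), Eif2ak3 (2.57 ± 0.22) and Ern1 (2.35 ± 0.24), so the sensors themselves were higher in EBs at the RNA level.

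Most genes of the lists of Atf4 targets that passed were lower in EBs. Of all genes, 35.2% were lower and 39.2% higher against d0. Of 17 genes of amino acid synthesis and transport, 11 fell and 2 rose against d0 (median -0.92), with the largest changes in Pycr1 (-2.49 ± 0.21), Slc38a2 (2.32 ± 0.20) and Shmt2 (-2.02 ± 0.13). Of 12 tRNA synthetases 9 fell and 0 rose (median -1.15), led by Cars (-2.48 ± 0.10), Yars (-1.85 ± 0.13) and Sars (-1.71 ± 0.13). Of 15 regulators and secreted stress factors, 8 fell and 2 rose (median -0.40), led by Gdf15 (-5.35 ± 0.44), Nupr1 (-5.23 ± 0.18) and Eif4ebp1 (-2.88 ± 0.14). Of 9 eIF2α kinases, their regulators and phosphatase subunits, 3 rose and 3 fell (median 0.15), with Impact (2.00 ± 0.14), an inhibitor of Gcn2, and Nck1 (1.90 ± 0.26) rising and Ppp1r15a (-1.15 ± 0.17), the stress-induced phosphatase subunit, falling. In later against earlier EBs 10 of the 12 synthetases fell and 0 rose (median -0.50), led by Cars (-0.97 ± 0.09), Lars (-0.89 ± 0.10) and Iars (-0.81 ± 0.10). Of the 17 amino acid genes 8 fell and 2 rose (median -0.41), led by Slc7a3 (-2.43 ± 0.29), Cth (-1.74 ± 0.18) and Slc7a5 (-1.37 ± 0.13). The 15 regulators did not move as a group, with 5 that fell, 3 that rose and a median of -0.02, that of all genes. Largest among them were Pmaip1 (-2.66 ± 0.30), Nupr1 (1.82 ± 0.23) and Ddit4 (-1.41 ± 0.20).

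Of the responses outside the ER, cytosolic heat shock genes (10) had 6 that fell and 2 that rose against d0 (median -0.63), led by Hspb1 (-4.03 ± 0.25), Bag3 (-0.83 ± 0.15) and Dnajb1 (-0.78 ± 0.16). Mitochondrial chaperones and proteases (8) had 5 that fell and 1 that rose (median -0.76), led by Hspe1 (-2.69 ± 0.16), Clpp (-2.57 ± 0.15) and Trap1 (-1.34 ± 0.09). Compared with all genes, whose median was 0.24 and of which 35.2% fell and 39.2% rose, both lists lay lower, on the side of the Atf4 targets.

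**Figure D5:**
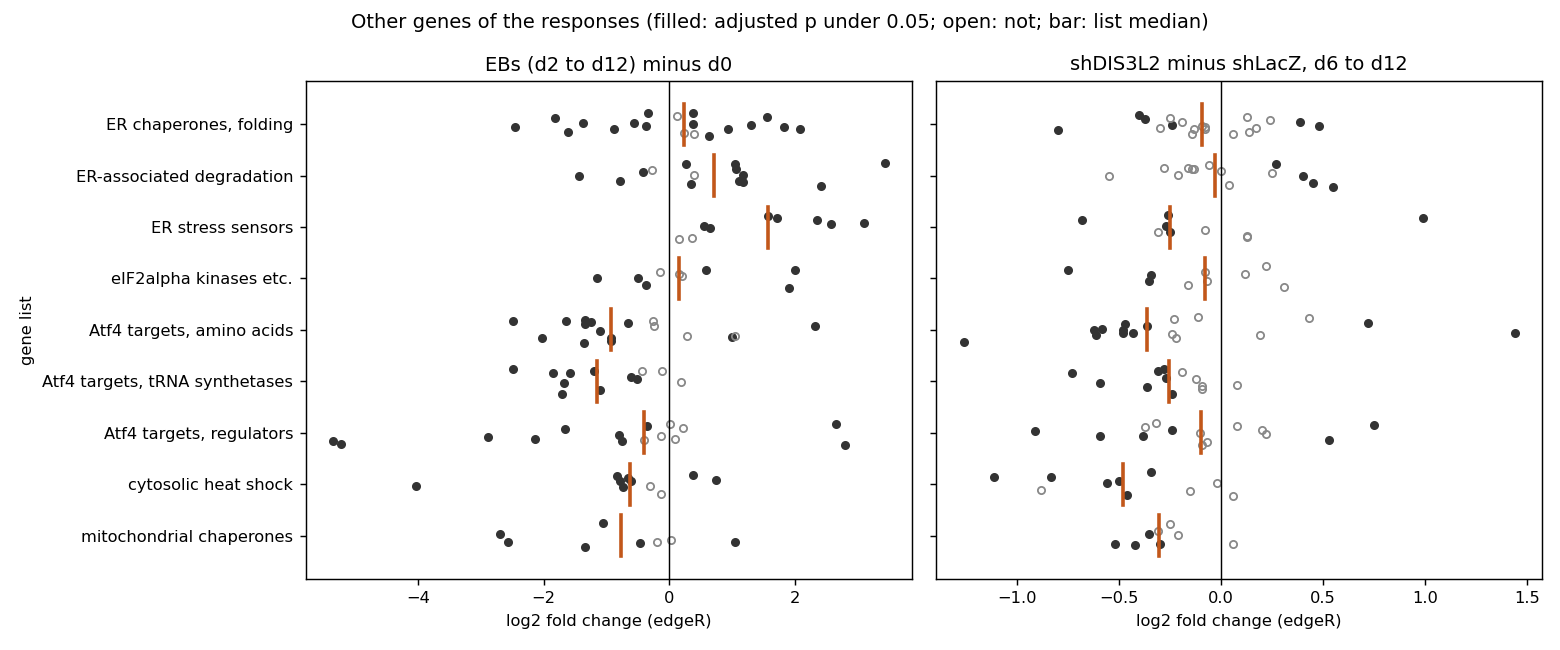
Log2 fold changes from edgeR of the genes of 9 other lists (1 row per list, points jittered vertically) for EBs against d0 (left) and for shDIS3L2 against shLacZ over d6 to d12 (right), filled where the adjusted p was under 0.05, with an orange bar at the list median. On the left the medians of the ER stress sensors (1.58) and of the tRNA synthetases (-1.15) lie farthest from 0, and on the right all 9 medians lie between -0.48 and -0.03.

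Counts between the lines over d6 to d12 are to be read beside the 18.7% of all genes that were lower and the 19.6% that were higher. In this test 7 of 12 tRNA synthetases were lower in shDIS3L2 and 0 higher (median -0.26, that of all genes being 0.02), led by Wars (-0.73 ± 0.11), Aars (-0.59 ± 0.07) and Nars (-0.36 ± 0.06). Of the 17 amino acid genes 9 were lower and 2 higher (median -0.36), with Slc7a11 (1.44 ± 0.29), the cystine transporter, higher, Slc7a3 (-1.26 ± 0.25) lower and Pycr1 (0.72 ± 0.19) higher. Asns, which belongs with them, was at -0.19 ± 0.08 (adjusted p = 0.0974). Of the 14 genes of ER-associated degradation 4 were higher and 0 lower, a share of higher genes not far from that of all genes, with Os9 (0.55 ± 0.12), Herpud2 (0.45 ± 0.09) and Erlec1 (0.40 ± 0.09). Of the 19 ER chaperones and folding enzymes 2 were higher and 4 lower (median -0.09). Their share of lower genes was near that of all genes, and their share of higher genes was smaller. The largest changes were those of Ero1l (-0.80 ± 0.08), Pdia4 (0.48 ± 0.08) and Dnajb11 (-0.40 ± 0.06). Among the stress sensors 1 was higher and 4 lower, with Creb3l1 (0.99 ± 0.11) higher and Eif2ak3 (-0.68 ± 0.12) and Atf6 (-0.27 ± 0.08) lower. Genes of these and the remaining lists were not set beside the median of their own chromosome, as Herpud1 was. Chromosome 8 as a whole was lower in shDIS3L2, with medians of -0.37 to -0.30 from d6 to d12. What it contributes to the counts of the lists was not tested.

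Of the remaining lists over d6 to d12, 3 of the 9 genes of eIF2α phosphorylation were lower, namely Ppp1r15a (-0.75 ± 0.09), Ppp1r15b (-0.35 ± 0.06) and Impact (-0.34 ± 0.06). Heat shock genes had 6 of 10 lower and 0 higher (median -0.48), led by Hspb1 (-1.11 ± 0.13), Hspa1b (-0.83 ± 0.26) and Hsph1 (-0.56 ± 0.09). Mitochondrial chaperones had 4 of 8 lower and 0 higher (median -0.31), led by Hspd1 (-0.52 ± 0.08), Dnaja3 (-0.42 ± 0.08) and Hspa9 (-0.35 ± 0.06). The Atf4 regulators had 4 lower and 2 higher of 14, led by Stc2 (-0.91 ± 0.18), Nfil3 (0.75 ± 0.20) and Sesn2 (-0.59 ± 0.12). Immediate early genes had 3 higher and 2 lower of 11, led by Egr2 (1.36 ± 0.39), Egr1 (0.91 ± 0.11) and Junb (-0.63 ± 0.17), so Atf3 did not share a direction with all of them. Without d8 and d10 this test keeps 4 libraries and no gene of the whole table passed, so the calls could not be repeated there. In these 4 libraries 57 of the 57 called genes of these 10 lists kept their direction. The same libraries were among those that gave the calls, so the kept direction is no independent check.

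With d0 and the depth of each library shared by all points, 11333 protein-coding genes, the members included, were compared by Pearson's r. The genes most like the members by level over the 14 libraries were then taken from those outside the members. For the mean pattern of the 4 ER genes they were Stt3a (r = 0.990), a subunit of the oligosaccharyltransferase of the ER, Entpd7 (0.985), Bahd1 (0.983), Tor4a (0.981) and Ggcx (0.980), the vitamin K-dependent carboxylase of the ER. For the mean pattern of the 5 targets of Atf4 they were Gpt2 (0.877), a mitochondrial alanine aminotransferase, Dvl2 (0.867), Tmem268 (0.853), Dgat1 (0.853) and Cox18 (0.849). Against the ER pattern Atf3 had r = 0.81 and Asns r = -0.85, and against the pattern of the Atf4 targets, which includes it, Atf3 had r = 0.01, so by level over these libraries Atf3 went with the ER genes.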

How the data were processed

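PolyA RNA of the 14 libraries (2 lines, 7 days, 1 library each) was sequenced by the authors, and the labels name Subread, featureCounts and GRCm38 for alignment, counting and build. The deposited counts are raw reads of each gene. For the CPM table the authors used edgeR, and its values equal (count + 0.25) in CPM units over the 16181 listed genes, with no scaling between libraries.

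Levels and daily ratios used the deposited CPM, with exact (Clopper-Pearson) 95% intervals of the ratio of reads. Intervals use the reads of both libraries alone, so they cover counting error and not the spread between libraries or cultures. PCR copies of a molecule could not be told apart. Ratios of 2-fold or more were counted among genes that reached 1 CPM in either library. List sums are reads of the genes in CPM units over the listed genes. The counts were tested with edgeR 4.0.16 (R 4.3.3) by its quasi-likelihood test, after TMM scaling and filterByExpr, at a Benjamini-Hochberg adjusted p under 0.05 over all genes, with day and line as terms, for the lines over d0 to d12 and over d6 to d12, the change of that difference, EBs against d0, and d6 to d12 against d2 and d4. Alternatives were DESeq2 1.42.0, limma 3.58.1 on log2(CPM + 1) and log2(CPM + 0.25), other scalings, no filter and leaving out each day. The SE printed with an edgeR log2 fold change is its absolute value divided by the square root of the test's F statistic. The tests and ratios were tried on simulated data as a check of the code. Simulated counts for the tests had the same spread for all genes and no changes but the planted ones, unlike these libraries. Other steps used Python 3.11.15 with numpy 2.4.6, pandas 2.3.3, scipy 1.17.1 and matplotlib 3.10.9.

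The members, lists and tests were chosen with earlier results of these data known. All members were named. Of each other list, the genes with the 3 largest absolute log2 fold changes among those that passed in a test described were named, and, for likeness, the 5 genes of mean CPM of at least 5 with the highest r. The values of 1 gene that this rule names are not reported here. Leaving out d8 and d10 together and the steps between neighboring days were added after values were seen. Whole-table depth was 7178712 to 39888099 reads per library, and 3 reads, the floor, correspond to 0.0960 to 0.474 CPM.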

Additional observations from a re-analysis of the deposited data

How the results depend on the processing

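The number of genes called for the lines over d0 to d12 was 1147, 2093 without the filter on low counts, 2511 with DESeq2, 8 to 2190 with a day left out and 0 without d8 and d10, with 0 to 2 of the 10 members. Over d6 to d12 it was 6574, 3336 to 6678 with a day left out, with 2 to 5 members, and 0 genes and 0 members without d8 and d10. For the change of the difference it was 2023, 3279 without the filter (2 members), 524 to 2151 with a day left out (0 to 1 members) and 24 without d8 and d10. For later against earlier EBs it was 11115 and 6698 to 11716 with a day left out. At 3-fold, 2 members were counted at d0, Herpud1 and Chac1, both lower, where 2.89% of genes were counted in either direction. On each other day 0 members were counted at 3-fold, beside 0.313% (d2) to 11.9% (d10) of genes. At d12, 2 were past 2-fold with TMM factors or DESeq2's size factors. Directions of the tested differences turned only where they passed in neither setting. Between the lines over d0 to d12, Ddit3 was at -0.21 to 0.07 with a day left out, above 0 without d0 (0.03) or d4, and over d6 to d12 Chac1 at -0.36 to 0.29, above 0 without d10 (0.07) or d12 and Xbp1 at 0.04 without d8 and d10. For the change of the difference, Atf4 was at 0.11 with library totals, at 0.08 with limma on either CPM scale, at -0.29 to 0.11 with a day left out, above 0 without d2, d4 (0.09) or d12 (0.02), and at 0.01 without d8 and d10, Herpud1 at -0.21 (without d0) to 0.43, Hspa5 at -0.03 (without d6) to 0.12 and Xbp1 at 0.02 without d8 and d10. The causes were not tested. Of the other values of single members, 770 kept direction and call in a test or, as daily ratios, stayed inside their counting interval. A daily ratio inside its interval could still cross 1, as that of Dnajb9 at d4 did (0.974 by deposited CPM, 1.04 with TMM factors). Of the rest, 36 lost a call, 5 gained one and 24 daily ratios moved beyond their counting interval. The tests between the lines pair them by day, and the labels give no replicate numbers for another pairing.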

Other observations

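The other lists over d6 to d12 are given as values, with 1 library per line and day behind them. Their counts are to be read beside the 18.7% of 17164 genes that were lower in shDIS3L2 and the 19.6% that were higher. In the 4 libraries left without d8 and d10 no gene of the whole table passed. There 47 of the 47 called genes of these lists that were tested again kept their direction. These libraries were among those that gave the calls, so the kept direction is no independent check. Pluripotency markers had 7 of 10 lower in shDIS3L2, led by Pou5f1 (-2.32 ± 0.39, log2 fold change ± SE, edgeR), Zfp42 (-1.77 ± 0.46) and Esrrb (-1.71 ± 0.46). Visceral endoderm-like markers were led by Apob (-2.25 ± 0.11), Cubn (-2.13 ± 0.11) and Afp (-2.06 ± 0.32), and mesenchyme-like markers by Col1a2 (3.68 ± 0.25), Col1a1 (3.46 ± 0.28) and Lum (3.17 ± 0.15). Neural-like markers had 4 of 7 lower and 1 higher, with Sox1 (-2.58 ± 0.53), Elavl3 (-1.82 ± 0.29) and Stmn2 (-1.25 ± 0.20) lower. The sum of the 8 listed neural-like genes did not share that direction on all days. It was higher in shDIS3L2 at d6 (214 against 77.9 CPM) and d8 (121 against 52.5), and lower at d10 (86.4 against 87.9) and d12 (102 against 126). Cardiomyocyte-like markers had 6 of 6 higher, led by Actc1 (3.07 ± 0.42), Tnnt2 (2.64 ± 0.30) and Myl7 (2.34 ± 0.49). Blood-like markers had 3 of 7 higher, namely Ptprc (2.17 ± 0.43), Hbb-y (1.47 ± 0.24) and Hbb-bh1 (1.14 ± 0.26), and endothelial-like markers 2 of 7, Kdr (1.61 ± 0.36) and Emcn (1.39 ± 0.20). Of 11 genes of hypoxia and glucose shortage 5 were lower and 1 higher, with Txnip (0.87 ± 0.26) higher and Ldha (-0.82 ± 0.15) and Pdk1 (-0.66 ± 0.13) lower.

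Each member also had its own nearest gene over the 14 libraries by Pearson's r, chosen after values were seen. That of Atf4 was Fam53a (r = 0.931), followed by Mthfd2 (0.922), a mitochondrial enzyme of folate metabolism, which was also second for Chac1 (0.892). For Hspa5 it was Copa (0.987), a subunit of the coat of Golgi-to-ER vesicles, and for Atf3 Lrrc59 (0.987), an ER membrane protein that binds ribosomes.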
